A study of Homo sapiens with 12 samples.

Results

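The 10 leukocyte immunoglobulin-like receptor (LILR) genes described here are LILRA1, LILRA2, LILRA4, LILRA5, LILRA6, LILRB1, LILRB2, LILRB3, LILRB4 and LILRB5. They were chosen by name, all lie on chromosome 19, and they are 10 of the 19970 protein-coding genes measured. The cells were MKL-1, a line established from a Merkel cell carcinoma (a skin tumour with neuroendocrine features), and each treatment has 2 replicates of this 1 line. The treated cultures had 3 µM EPZ011989, which blocks the enzyme EZH2, in 1% ethanol, and the vehicle cultures had 1% ethanol alone, with harvest on day 6 and fresh medium on day 3. Harvested cells were divided for CUT&RUN with antibodies to H3K27me3, to H3K4me3 or with control IgG, which gives 12 libraries in 6 groups of 2 replicates. CUT&RUN uses an antibody bound to chromatin to direct a nuclease that cuts out the DNA beneath it, and the data are the peaks listed for each library. The labels do not say whether the duplicates were grown on separate occasions, so p-values measure only the spread between these cultures.

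LILR proteins are cell-surface receptors of monocytes, dendritic cells and other white blood cells. The LILRB members are inhibitory: their cytoplasmic tails carry motifs that recruit the phosphatases encoded by PTPN6 and PTPN11. The LILRA members described here are activating and signal through the adaptor chain encoded by FCER1G. H3K27me3 is the repressive mark written by EZH2 in the Polycomb complex, and H3K4me3 marks active or poised gene starts.

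The start sites of the family share sequence as well as position. RefSeq lists 14 start sites for 8 of the members on GRCh38.p14, and LILRA6 and LILRA4 have no entry in the table used here. In the 250 bases before those starts, a word of 19 letters recurs upstream of 6 starts of 5 members. It is shown here because these starts all lay inside vehicle H3K27me3 peaks. In addition, 1 copy lay under the only H3K4me3 peak found at any member. Each stretch below is the shared word in capitals with the 20 bases on either side in lower case, read 5′ to 3′ on the strand of the gene.
LILRB5, minus strand, chr19:54257381-54257439: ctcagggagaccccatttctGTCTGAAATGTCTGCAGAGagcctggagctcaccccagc
LILRB2, minus strand, chr19:54280707-54280765: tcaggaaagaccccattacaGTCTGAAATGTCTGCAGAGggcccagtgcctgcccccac
LILRA2, plus strand, chr19:54573634-54573692: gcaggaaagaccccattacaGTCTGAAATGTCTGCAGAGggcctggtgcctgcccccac
LILRA1, plus strand, chr19:54593976-54594034: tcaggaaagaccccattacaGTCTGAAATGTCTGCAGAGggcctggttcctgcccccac
LILRB4, plus strand, chr19:54662782-54662840: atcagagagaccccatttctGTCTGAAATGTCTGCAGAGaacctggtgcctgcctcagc

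Of the 40 bases beside the word, LILRA2 and LILRA1 share 38, and LILRB2 shares 37 with each of them. LILRB5 and LILRB4 share 32, and the other pairs 23 to 28. Searched on both strands, the word GTCTGAAATGTCTGCAGAG was found before 6 of 34961 start sites on chromosomes 1 to 22 and X, which is 0.0172%, and all 6 belong to the LILR genes. LILRA2 holds it before each of 2 starts, which share the same copy. The word was picked because members share it, so its frequency describes the family and tests nothing.

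The first question was what H3K27me3 covered at these genes and what was left after EZH2 inhibition. In vehicle cells the family lay under several broad H3K27me3 peaks of chromosome 19, parted by gaps. Neither EPZ011989 library had a H3K27me3 peak anywhere in the interval of 457 kb from 2500 bp before LILRB3 to 2500 bp after LILRB4 (chromosome 19, 54213778 to 54671218, hg38). Covered length there was 0 bp in both EPZ011989 libraries, against 422 kb and 426 kb, or 92.2% and 93.1% of the interval, in vehicle replicates 1 and 2. Over chromosomes 1 to 22 and X the EPZ011989 H3K27me3 lists held 363 and 22 peaks, against 40782 and 44287 in vehicle. No IgG library listed a peak in the interval. The IgG lists held only 12 and 9 peaks with EPZ011989 and 38 and 4 in vehicle, so their absence here says little.

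**Figure D1:**
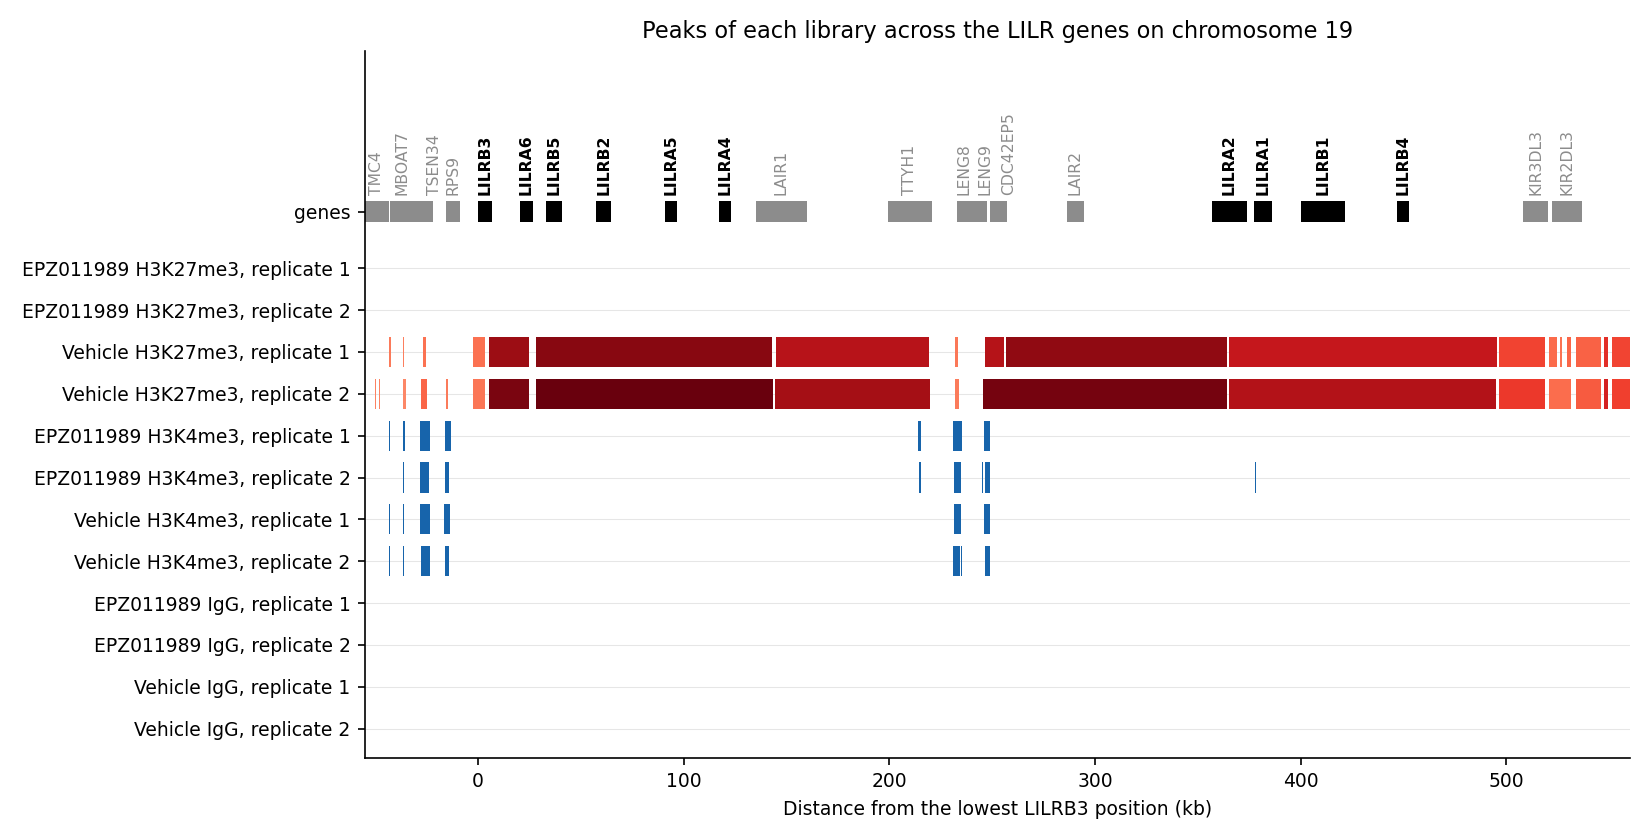
Peaks of all 12 libraries along the LILR genes; the horizontal axis is distance in kb from the lowest LILRB3 position, with LILR genes in black and other genes in grey above. Bars are peaks (red H3K27me3, darker for a higher fold; blue H3K4me3), none drawn narrower than 0.4 kb, and the H3K27me3 bars that run across the LILR genes in both vehicle libraries are missing from both EPZ011989 libraries.

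The genes form 2 groups. The first holds 6 members, in the order LILRB3, LILRA6, LILRB5, LILRB2, LILRA5 and LILRA4, and the second holds 4, in the order LILRA2, LILRA1, LILRB1 and LILRB4. Between LILRA4 and LILRA2 lie 234 kb with LAIR1, TTYH1, LENG8, LENG9, CDC42EP5 and LAIR2. In each vehicle library the windows of the 10 members were held by 5 peaks, so the members are not independent measurements.

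The longest of these peaks began inside LILRA2 and ran past LILRB4, over 130 kb in each vehicle library. With folds of 11.4 and 12.8 (the authors' ratio of fragment pileup to background, used here only within a list) it took in LILRA1, LILRB1 and LILRB4. In length it ranked 60 of 40782 peaks in vehicle replicate 1 and 71 of 44287 in vehicle replicate 2. A peak of 115 kb in each vehicle library, with folds of 15.3 and 16.9, took in LILRB5, LILRB2, LILRA5 and LILRA4 and continued into LAIR1. It ranked 70 and 86 by length. A peak of 19.5 kb, with folds of 14.4 and 16.0, reached from LILRB3 into LILRA6. The remaining strong peak ended inside LILRA2 and was 107 kb long in replicate 1 and 119 kb in replicate 2, with starts at 54472973 and 54461599, beyond the LILR genes. None of these peaks had a counterpart in either EPZ011989 library.

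Vehicle H3K27me3 broke inside 3 members. LILRB3, an inhibitory receptor of myeloid cells, had a gap of 2069 bp in replicate 1 and 1885 bp in replicate 2 within the gene. Beyond the gap its lower end lay in a separate peak of 5.42 kb and 5.95 kb whose folds, 4.29 and 3.95, were the lowest of the peaks that hold members. LILRA6, an activating receptor whose extracellular part is nearly identical to that of LILRB3, had a gap of 3575 bp and 3565 bp across its upper end. Reads from near-identical copies can be hard to place, how the authors treated them is not given in the sources used here, and the covered lengths of LILRB3 and LILRA6 are therefore uncertain. LILRA2, an activating receptor that recognises cleaved immunoglobulins, had a gap of 1154 bp and 1203 bp inside the gene. The other 7 genes were covered from end to end in both vehicle libraries.

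The value tested for each gene was the number of bases inside peaks within 2500 bp of either gene end, a window of 10002 bp for each member. LILRB3 had 0 and 0 bp in the EPZ011989 libraries and 8764 and 8979 bp in the vehicle libraries (difference −8871.5 bp, SE 104, limma adjusted p = 0.000385). LILRA6 had 0 and 0 bp with EPZ011989 and 6427 and 6437 bp in vehicle (difference −6432 bp, SE 12.3, limma adjusted p = 3.11e-06). In both genes the groups do not overlap, and the spread between the vehicle libraries was a small part of the difference.

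The remaining 8 members reached the floor and the ceiling of the measure. Among the inhibitory receptors these were LILRB1 and LILRB2, which bind HLA class I molecules, LILRB4, which binds apolipoprotein E, and LILRB5. Among the activating receptors they were LILRA1, LILRA2, LILRA4 and LILRA5. LILRA4 is the receptor of plasmacytoid dendritic cells for the protein encoded by BST2. Each of the 8 had 0 and 0 bp with EPZ011989 and 10002 and 10002 bp in vehicle, a difference of −10002 bp (limma adjusted p = 2.11e-21). With no spread in either group, that p-value rests on a spread taken from other genes and does not rank these windows above LILRB3 or LILRA6. The order of the vehicle levels is thus these 8 tied at the top, then LILRB3, then LILRA6; the libraries of the last 2 do not overlap, but their order rests on lengths that are uncertain for near-identical copies.

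All 10 members fell, where 60.2% of the 9600 genes tested were called lower and 0.0% higher. After quantile normalization, which gives every library the same distribution of covered bases, 3599 genes were lower and 3309 higher, and all 10 members were still lower. The differences were then smaller, −3874.8 bp at the 8 fully covered members, −3309.6 bp at LILRB3 and −2090.4 bp at LILRA6, and since nearly all EPZ011989 windows were tied at 0 their direction mostly follows the vehicle lengths. Without EPZ011989 replicate 1 or 2 the share of all genes called lower was 33.5% or 33.4%, with 10 of 10 members called. The median difference was −10002 bp over the members and −2235 bp over all genes tested. In vehicle, 10 of 10 members carried H3K27me3 in both libraries, against 36.9% of all genes and 67.5% of the 1451 genes on chromosome 19. The whole window was covered in both vehicle libraries at 8 of 10 members, against 3.05% of all genes and 14.0% of those on chromosome 19. None of the members had a peak in an EPZ011989 library, where 0.205% of all genes did, and 10 of 10 members, against 36.8% of all genes, had no mark with EPZ011989 and a mark in both vehicle libraries.

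Depth moved with this result. A background solved from the folds and p-values of each list, taking it as the library's own, was 0.373 and 0.148 fragments per base in the EPZ011989 H3K27me3 libraries and 1.12 and 1.63 in the vehicle ones. On that basis the strong vehicle peaks over the members averaged 23.1 to 43.5 fragments. Scaled to the background of EPZ011989 replicate 1 they would average 7.49 to 10.5 fragments, above the 5 fragments of the weakest peak in that list. Scaled to replicate 2 they would average 2.97 to 4.16 fragments, most of them below the 4 of its weakest peak. The 130 kb peak over LILRA1, LILRB1 and LILRB4 would average 3.05 and 2.97 there, from vehicle replicates 1 and 2. The weak peak at the lower end of LILRB3 would fall below the weakest listed peak in both EPZ011989 libraries. The absence of peaks at most members is therefore a firmer measurement in replicate 1 than in replicate 2. In replicate 2, peaks of unchanged strength could mostly go unlisted on this basis, so their absence there says little. The part of depth in the result was not tested. A peak list of a whole culture also cannot tell fewer marked cells from less mark in each cell.

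**Figure D2:**
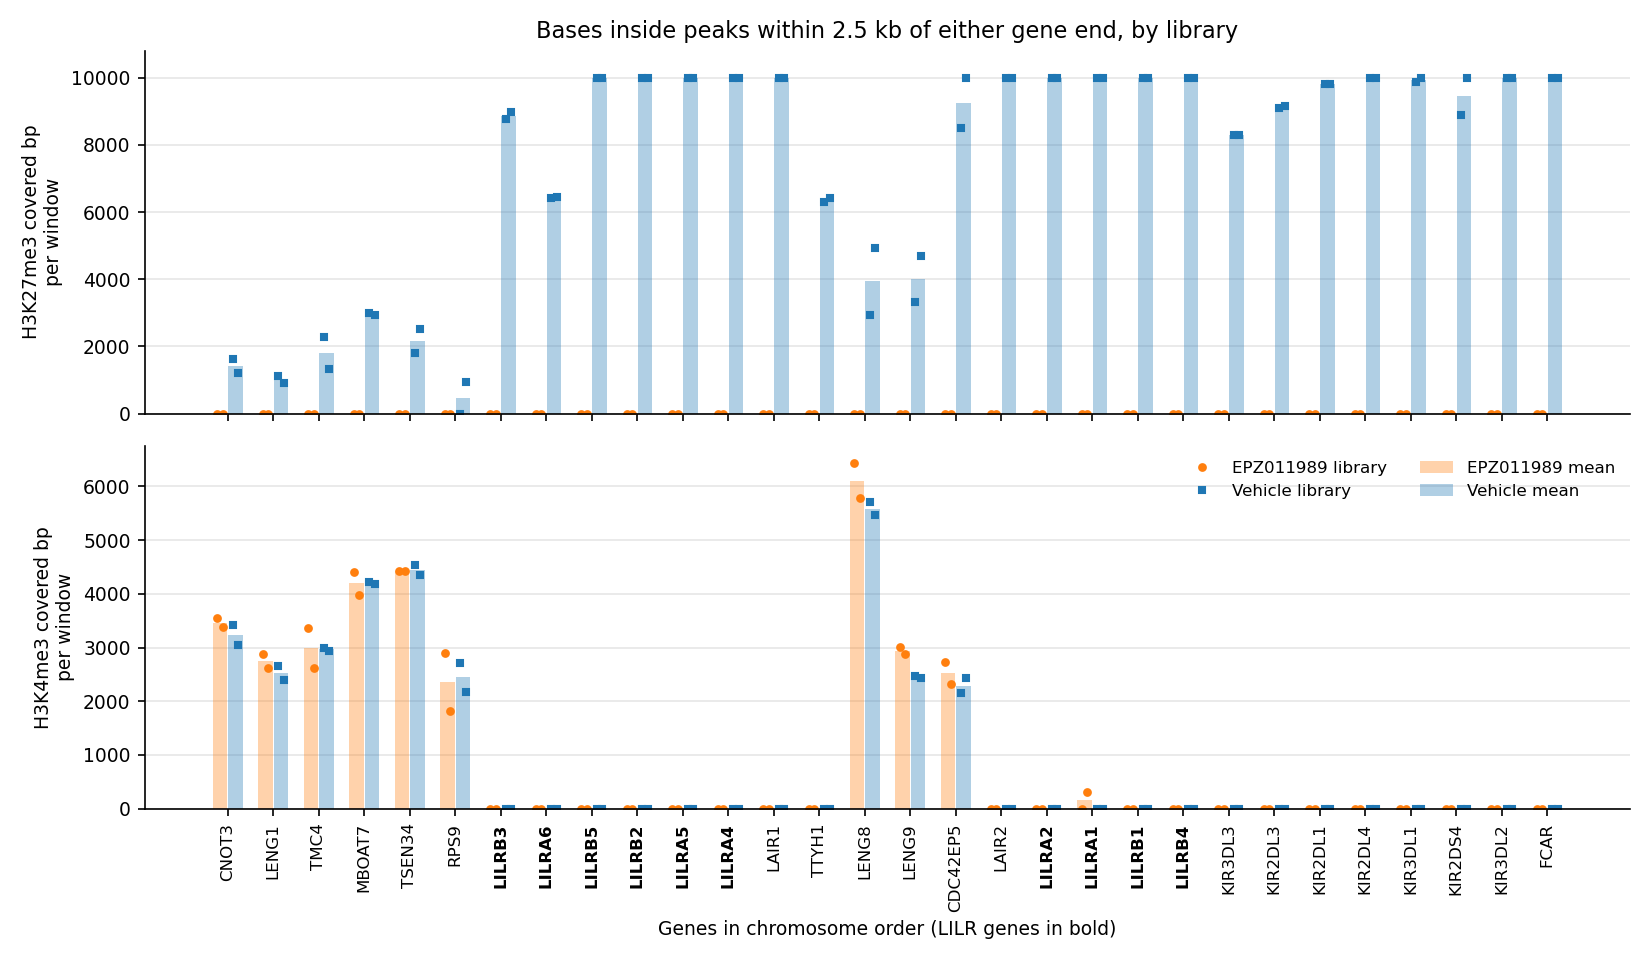
Bases inside H3K27me3 peaks (top) and H3K4me3 peaks (bottom) per gene window, for genes in chromosome order with LILR genes in bold; points are single libraries and bars are means of 2, EPZ011989 left of vehicle. LILR windows held 6427 to 10002 bp of H3K27me3 in vehicle and 0 bp with EPZ011989, and H3K4me3 appeared at LILRA1 alone, in 1 EPZ011989 library.

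The second question was whether H3K4me3 appeared at the genes that lost H3K27me3. It did not appear at any member in both EPZ011989 libraries. At 9 of the 10 members no H3K4me3 peak touched the window in any of the 4 libraries, whereas 69.1% of all genes had a peak in at least 1. None had one in either vehicle library, where 65.0% of all genes and 65.1% of those on chromosome 19 had one in both, and none had one in both EPZ011989 libraries, where 66.1% of all genes did. Gained peaks, present in each EPZ011989 library but in no vehicle library, were found at 0.921% of all genes and at 0 members, and lost peaks lay at 0.14% of all genes and at 0 members.

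The exception was LILRA1, an activating receptor that binds free HLA class I heavy chains. Its window held 0 and 308 bp of H3K4me3 in EPZ011989 replicates 1 and 2 and 0 and 0 bp in the vehicle libraries. The difference of 154 bp (SE 182, limma adjusted p = 0.871 over 13793 genes) was smaller than its standard error, and the groups overlap at 0. The peak ran from 54593974 to 54594281, beginning 342 bp after the LILRA1 gene start, and had a fold of 4.01 and a −log10 q of 3.17. By the solved background it held 8 fragments. In its list 14.9% of the 21086 peaks had this fold or a lower one. Of the 610 genes whose whole window carried H3K27me3 in both vehicle libraries, 319 (52.3%) had no H3K4me3 in any library and 35 (5.74%) gained it. Single-library peaks of the LILRA1 kind, in 1 EPZ011989 library and in no other H3K4me3 library, lay at 1.42% of all genes and at 47 (7.7%) of those 610. Background was higher in the EPZ011989 H3K4me3 libraries, at 1.48 and 1.24 fragments per base, than in the vehicle ones, at 0.572 and 0.857, and its part in H3K4me3 peaks or windows higher with EPZ011989 was not tested.

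The peak covered the second of the 2 LILRA1 start sites, at 54594197, and 223 of the 250 bases before it. Those 250 bases (chr19:54593947-54594196, plus strand, from RefSeq) are shown because they are the only LILR promoter with H3K4me3 in any library, and the shared word is again in capitals.
LILRA1 promoter: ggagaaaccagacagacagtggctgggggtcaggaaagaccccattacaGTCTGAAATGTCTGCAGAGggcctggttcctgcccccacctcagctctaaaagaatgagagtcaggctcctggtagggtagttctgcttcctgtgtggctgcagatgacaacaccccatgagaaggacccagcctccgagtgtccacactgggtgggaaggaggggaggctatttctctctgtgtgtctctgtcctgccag

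This stretch holds a single CpG dinucleotide, and low CpG content was common to all the LILR starts listed, which leave out LILRA6 and LILRA4. The 14 starts had 1 to 5 CpG dinucleotides in the 250 bases before them, with a median of 3. Over all 34961 starts the range was 0 to 67 with a median of 11. The neighbouring genes had 7 to 39 with a median of 21.5 over 16 starts, and the other receptor genes of the complex had 3 to 11 with a median of 8 over 12 starts. Starts of 1 gene overlap in part and are not independent.

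Starts with at most 5 CpG, the highest number among the listed LILR starts, seldom lay inside H3K4me3 peaks in any treatment. They did so in both EPZ011989 libraries at 5.36% and in both vehicle libraries at 5.49%, whereas starts with more CpG did so at 72.1% and 70.4%. Among starts inside vehicle H3K27me3 and outside vehicle H3K4me3 peaks, those with at most 5 CpG lay in H3K4me3 peaks of both EPZ011989 libraries in 14 of 1302 cases (1.08%) and those with more CpG in 250 of 1772 (14.1%). All 14 listed LILR starts lay inside vehicle H3K27me3 in both libraries and outside vehicle H3K4me3. Of these, 0 of 14 lay in H3K4me3 peaks of both EPZ011989 libraries. The letters GAGGAA, the core of sites for the blood lineage factor PU.1, were present on either strand before 3 of the 14 starts, at LILRB3, LILRA5 and LILRB4, and before 23.6% of all starts.

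**Figure D3:**
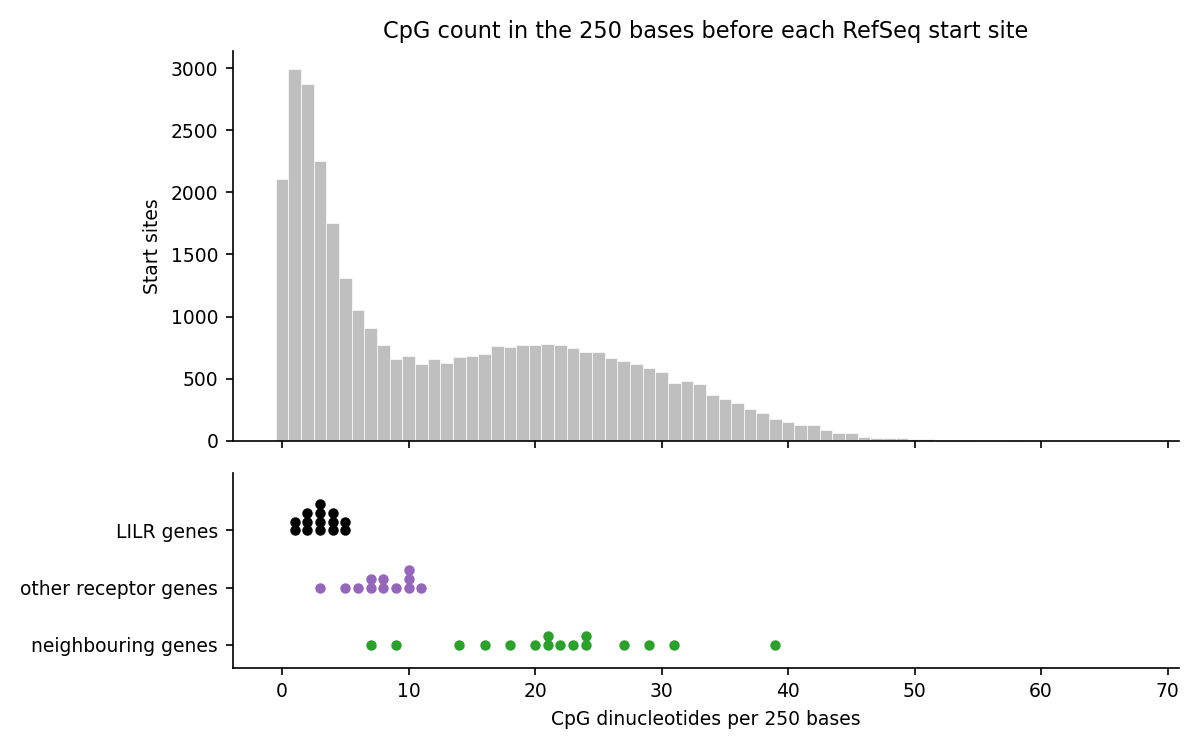
CpG dinucleotides in the 250 bases before each RefSeq start site; the grey histogram counts all 34961 starts and each point below is 1 start of a LILR gene, another receptor gene of the complex or a neighbouring gene. LILR starts sit between 1 and 5, and neighbouring genes reach 39.

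H3K4me3 stood beside LILRB3, at one edge of the family, and in the stretch between its 2 groups of genes; none was listed beside LILRB4, at the other edge. RPS9, a ribosomal protein gene beside LILRB3, had 2900 and 1825 bp with EPZ011989 and 2706 and 2179 bp in vehicle. The nearest H3K4me3 peak to LILRB3 was the one at RPS9, 13.4 and 14.2 kb away with EPZ011989 and 13.7 and 14.1 kb away in vehicle. LENG8, which lies mostly between the broad domains on either side of it, had 6434 and 5775 bp with EPZ011989 and 5712 and 5462 bp in vehicle (limma adjusted p = 0.767). Short vehicle H3K27me3 peaks of 1.38 kb and 2.01 kb lay over its gene start. Its window held 0 and 0 bp of H3K27me3 with EPZ011989 and 2947 and 4925 bp in vehicle (limma adjusted p = 0.049). LENG9 and CDC42EP5 also had H3K4me3 in all 4 libraries, but all of it in the CDC42EP5 window came from the peak over the LENG9 start.

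From LILRB4, at the far end, the nearest H3K4me3 peak was 198 kb away in EPZ011989 replicate 1 and in both vehicle libraries, and 68.7 kb away in EPZ011989 replicate 2, where the LILRA1 peak was nearer. From LILRA4, the distance was 90.9 and 91.7 kb with EPZ011989 and 108 kb in both vehicle libraries. The shorter distance comes from a H3K4me3 peak inside TTYH1, which encodes a membrane protein of the tweety family, found in both EPZ011989 libraries (1599 and 658 bp, folds 8.48 and 5.79) and overlapping none in vehicle. It lay more than 2500 bp from either end of TTYH1, so the window measure gives that gene 0 bp of H3K4me3 in every library, and it is named here after its values were seen. It was the only such peak in the interval.

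The receptor genes beside the family also carried H3K27me3. Of 15 other genes of the leukocyte receptor complex, 15 carried H3K27me3 in both vehicle libraries and none in an EPZ011989 library, 6 over the whole window, and 13 fell by limma. LAIR1 and LAIR2, which encode a collagen receptor of white blood cells and its secreted relative, had 0 and 0 bp with EPZ011989 and 10002 and 10002 bp in vehicle, as had KIR2DL4, KIR3DL2, FCAR and NCR1. VSTM1, with 0 and 0 bp under EPZ011989 and 441 and 5615 bp in vehicle, and TARM1, with 0 and 0 bp under EPZ011989 and 595 and 2326 bp in vehicle, were the 2 that did not pass (limma adjusted p = 0.361 and 0.233). OSCAR, an osteoclast receptor, was the 1 gene of this list with H3K4me3 in its window. The window held 837 and 685 bp under EPZ011989 and 1119 and 795 bp in vehicle. In each library these bases were the edge of a peak over the start of the neighbouring gene NDUFA3. That peak lay outside the OSCAR gene itself.

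Among the 13 genes that lie between or beside the receptors, 10 carried H3K27me3 in both vehicle libraries, none over the whole window. H3K4me3 was present in all 4 libraries at 12 of the 13, some of which share a peak. The median H3K27me3 of the 13 was 0 and 0 bp with EPZ011989 and 2287 and 2531 bp in vehicle. For the LILR genes it was 10002 bp in each vehicle library. The SIGLEC family, another group of white blood cell receptors largely on chromosome 19, was marked at 15 of 16 genes, over the whole window at 9, and 15 of 15 tested windows fell, with 0 gained H3K4me3 peaks. Outside these lists, the genes with covered lengths nearest to the LILR mean over the 8 H3K27me3 and H3K4me3 libraries were CABP2, CCNP, BIRC7 and PRR33, at Euclidean distances of 34.9, 78.7, 90.4 and 90.5 bp. None of these 4 had H3K4me3 in any library. That follows from how they were picked, since the distance counts H3K4me3 length, so it is no separate result.

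Genes whose products meet LILR proteins were less uniform. Of 9 ligand genes, 5 carried H3K27me3 in both vehicle libraries and 4 fell. BST2 had 0 and 0 bp with EPZ011989 and 6550 and 5559 bp in vehicle (limma adjusted p = 0.0049), and APOE 0 and 0 bp with EPZ011989 and 8059 and 8170 bp in vehicle (limma adjusted p = 0.000133). HLA-G, a class I molecule of the placenta, had 0 and 0 bp with EPZ011989 and 2533 and 4007 bp in vehicle (limma adjusted p = 0.0393). HLA-B fell from a short stretch of 329 and 340 bp in vehicle to 0 and 0 bp with EPZ011989 (limma adjusted p = 0.000969). HLA-F, with 3165 and 5765 bp in vehicle and 0 and 0 bp with EPZ011989, did not pass (limma adjusted p = 0.0658). HLA-B, HLA-C, HLA-F and B2M had H3K4me3 in all 4 libraries, and neither a gain nor a loss was found in the list.

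Of 7 signalling genes, 3 carried H3K27me3 in both vehicle libraries and 2 of 4 tested fell. SYK, a kinase of activating receptors, had 0 and 0 bp with EPZ011989 and 5001 and 5001 bp in vehicle (limma adjusted p = 3.21e-06), and the kinase gene LYN fell as well (limma adjusted p = 0.0139). TYROBP, an adaptor of activating receptors, did not pass (limma adjusted p = 0.104). FCER1G had no peak of either mark in any library. PTPN6 and PTPN11 had H3K4me3 in all 4.

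Markers of several cell types were looked up in the H3K4me3 lists, as counts without a test. Of all 19970 genes, 12856 had a H3K4me3 peak in all 4 libraries, so such a peak alone does not identify a cell type. All 13 Merkel cell carcinoma markers, among them ATOH1, SOX2, INSM1 and KRT20, had a peak in all 4 libraries. Of 13 blood and myeloid markers 4 had one, FCGR3A, SPI1, CD68 and CD14, and PTPRC, the pan-leukocyte gene, had none in any library. Of 6 fibroblast markers 3 had one, and of 4 keratinocyte markers 0. Over all genes, limma called no H3K4me3 window of the 13793 tested (0.0% in each direction), and without adjustment 1160 passed 0.05 as higher and 204 as lower.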

How the data were processed

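Each library has 1 deposited peak list, on hg38. The submitters' processing notes name MACS2 2.1.1.20160309, Bowtie2 2.2.9, FastQC and SAMtools 0.1.19. Thresholds, control library, duplicate handling and spike-in use are not given in the sources used here, and no spike-in scaling was made. H3K27me3 lists hold broad peaks; H3K4me3 and IgG lists hold narrow peaks. Each deposited peak has the authors' fold (a ratio), −log10 p, −log10 q, and a score, which was deposited but not used. Read depth is unknown; as a stand-in, a background in fragments per base was solved from the most frequent fold of each list and its p under a Poisson model. It ran from 0.0716 to 0.221 in IgG, from 0.148 to 1.63 in H3K27me3 and from 0.572 to 1.48 in H3K4me3 libraries, where both EPZ011989 libraries were the higher.

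Gene positions and sequences came from RefSeq tables of GRCh38.p14, whose primary chromosomes have the hg38 coordinates. The value per gene was bases inside peaks within 2500 bp of either gene end. A gene was marked with an overlap of 1 bp or more. The comparison used limma 3.58.1 (trend, robust) under R 4.3.3 on genes with any peak in the mark's 4 libraries, with Benjamini-Hochberg adjustment over them and a threshold of 0.05. The fit was tested on simulated data, where it did not call every changed window. Other steps ran in Python 3.11.15. Permutation over 2 + 2 libraries was not used. All members are named. Genes of other lists are named where marked or where they have H3K4me3 in all 4 libraries, 6 at most for each list. Genes that border a domain holding a member are named as well. VSTM1, TARM1, OSCAR, NDUFA3 and the ligand genes beyond 6 were named after their values were seen, to spell out small counts or shared peaks. Members, lists and tests were chosen with earlier results of these data known, and the 19-letter word after the sequences were seen. LILRA3 was not analysed here, and 1 gene of the ligand list is not reported here by itself.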

Additional observations from a re-analysis of the deposited data

How the results depend on the processing

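All 10 members stayed lower in H3K27me3 in each of 11 alternative fits with a value for them, and all 8 with a listed start stayed lower with start-site windows; the fit with no filter could not be made for H3K27me3. The largest adjusted p was 0.0183 with the replicate block, 0.0357 without EPZ011989 replicate 1 and 0.0356 without replicate 2. The count of lower members was 10 without any 1 library. The share of all genes called lower, 60.2%, was 33.5% and 33.4% without EPZ011989 replicate 1 and 2. Without a vehicle replicate 99.6% of all genes tested were lower, so the call says little there. Quantile normalization called 3309 of 9600 genes higher and all 10 members lower. Whether replicate numbers pair the cultures is not known. The correlation of replicate deviations across genes was 0.0162 for H3K27me3 and −0.0297 for H3K4me3. It cannot decide this, since H3K27me3 cover was 0 in both EPZ011989 libraries at nearly all genes and each group has only 2 replicates. With the replicate block LILRA1 H3K4me3 stayed uncalled (adjusted p = 0.918), and 4555 genes were lower in H3K27me3. No alternative fit that kept every library called a member for H3K4me3. At a −log10 q of 5 or more no member had a peak to test, so none could be called. Most of the other fits that kept every library tested LILRA1 alone, and its limma adjusted p in them was 0.843 or more. Without EPZ011989 replicate 1 the LILRA1 difference was 308 bp, from the 1 library left in that group. Without EPZ011989 replicate 2 no member had a value to test. The LILRA1 peak was absent at a −log10 q of 5 or more. Members gaining H3K4me3 numbered 0 to 1 when 1 library was left out, the 1 being LILRA1 without EPZ011989 replicate 1. Interval cover in both vehicle libraries, 92.2%, was 90.7% with the stricter q, 93.1% in either vehicle library and 94.6% over the gene bodies alone. All-gene H3K4me3 calls were 35 higher with windows of 5000 bp, 89 higher and 7 lower after quantile normalization, and 491 higher and 32 lower with no filter.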
